A study of Mus musculus with 2 samples.

Results

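The miR-30 family was read on 8 probes for mature mouse microRNAs. These were chosen by name from the 1892 microRNA probes of the array, with earlier results of these data known. They were the 5p arms mmu-miR-30a-5p, mmu-miR-30b-5p, mmu-miR-30c-5p, mmu-miR-30d-5p and mmu-miR-30e-5p, and the 3p arms mmu-miR-30a-3p, mmu-miR-30d-3p and mmu-miR-30e-3p. Unwounded mouse skin and unwounded mouse oral mucosa were each hybridised to 1 single-colour array, with 2 µg of total RNA pooled from 3 animals per tissue, so that the comparison asks how microRNA levels differ between the tissues at baseline. The study worked with female Balb/c mice of 8 to 10 weeks, and the labels name no transgene or treatment for either group. With 1 pool per tissue there was no biological replicate, every difference is one between 2 arrays, and no test between the tissues was possible. In pooled tissue a smaller number of cells of a type and a lower level per cell cannot be told apart.

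A microRNA precursor is a short hairpin from which Dicer cuts a duplex. Usually the guide strand of the duplex is loaded into Argonaute and represses messenger RNAs that pair with its seed (bases 2 to 8), and the passenger strand is degraded. In the miR-30 family the 5p arms share their seed and act as guides. Their known targets include regulators of the epithelial-mesenchymal transition such as Snai1 and the matrix-associated growth factor Ccn2. The 3p arms have another seed and are usually the less abundant strand.

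The mature sequences of the 5p arms are shown because their closeness bears on what a probe can tell apart. They were taken from the target column of the arrays, and the seed is in capitals.
miR-30a-5p: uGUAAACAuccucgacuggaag
miR-30b-5p: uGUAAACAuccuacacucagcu
miR-30c-5p: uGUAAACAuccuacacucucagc
miR-30d-5p: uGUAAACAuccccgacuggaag
miR-30e-5p: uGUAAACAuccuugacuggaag
All 5 had the seed GUAAACA and the same first 11 bases. Counted from the 5′ end, miR-30d-5p differed from miR-30a-5p by the single substitution U12C and miR-30e-5p from miR-30a-5p by C13U. MiR-30b-5p and miR-30c-5p shared their first 18 bases. How far a probe also bound the microRNA of a near neighbour was not tested.

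The 3p arms are shown to set their seed beside that of the 5p arms, again in capitals.
miR-30a-3p: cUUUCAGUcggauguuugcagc
miR-30d-3p: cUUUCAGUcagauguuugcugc
miR-30e-3p: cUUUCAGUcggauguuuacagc
These 3 shared the seed UUUCAGU and their first 9 bases, and miR-30e-3p differed from miR-30a-3p by G18A. No other probe of the array had the seed UUUCAGU. The seed GUAAACA was found in 6 of the 1892 probes, the 5 members and miR-384-5p, whose sequence departs from the family after the seed.
miR-384-5p: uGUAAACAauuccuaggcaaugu

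The precursors lie in 3 pairs in RefSeq's annotation of GRCm38.p6. Mir30a and Mir30c-2 are on chromosome 1 at chr1:23272269-23272339 and chr1:23291701-23291784, 19.4 kb apart. Mir30c-1 and Mir30e are on chromosome 4 at chr4:120769534-120769622 and chr4:120772606-120772697, 2.98 kb apart and both inside the span of Nfyc, which encodes a subunit of the transcription factor NF-Y. Mir30b and Mir30d are on chromosome 15 at chr15:68337415-68337510 and chr15:68341208-68341289, 3.70 kb apart. MiR-30c-5p is made from both Mir30c-1 and Mir30c-2, so its probe could not tell these apart.

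Each array held 1892 microRNA probes on 2 repeat spots each, and the value of a spot was its median Cy5 brightness in scanner units. Blank brightness, from 16 spots without a probe, was 36.4 ± 7.84 (SD) for skin and 51.9 ± 6.65 for oral mucosa. A probe was taken as detected where the mean of its repeat spots exceeded this blank level by over 3 SD, a limit of 59.9 for skin and 71.8 for oral mucosa. On this basis 446 probes were detected in skin, 510 in oral mucosa and 394 on both. All 5 of the miR-30 5p arms were among the 394. Over all 5p probes of the array the share detected on both arrays was 22.9% (179 of 782). Of the miR-30 3p arms 1 of 3, miR-30a-3p, was detected on both arrays and the other 2 on neither, where the share of all 3p probes was 18.0% (142 of 788).

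Differences are given as oral mucosa minus skin after Variance Stabilizing Normalization (VSN). In this method each array has a fitted offset and scale, and the transformed values of bright spots behave as log2 values. The SD beside a difference comes from the repeat spots of both arrays and covers error within the arrays only. A microRNA was taken to differ where its VSN log2 difference was at least 1 in size, a 2-fold change. By this rule 13.7% of the 562 probes detected on at least 1 array were higher in oral mucosa (77 probes) and 14.8% were higher in skin (83 probes). The median difference over the 562 was -0.00, with quartiles at -0.50 and 0.53.

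None of the 5 miR-30 5p arms passed the size rule. Their median difference was 0.60, and they ranged from -0.01 for miR-30d-5p to 0.70 for miR-30b-5p, 4 of 5 being above 0. MiR-30b-5p, miR-30c-5p and miR-30e-5p lay close together near 1.5-fold to 1.6-fold higher in oral mucosa, and miR-30a-5p and miR-30d-5p lay near 0. All 5 read between 5.74 and 41.7 times the detection limit of their array.

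The signal of miR-30b-5p was 847 and 1655 on the first and second spot of the skin array, and 2696 and 2820 on the oral mucosa array. The means were 1251 ± 572 (SD of the 2 spots) and 2758 ± 87.2, a VSN log2 difference of 0.70 (SD 0.71). On the VSN scale, which takes out the brightness of each array, both oral mucosa spots stood above both skin spots. Such separation of repeat spots in favour of oral mucosa was found for 31.2% of the 394 probes detected on both arrays, and in favour of skin for 36.5%.

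MiR-30c-5p, the member that 2 precursors encode, read 909 and 1992 in skin and 2917 and 3068 in oral mucosa. Its difference was 0.60 (SD 0.83), and its spots stood apart in the same direction. MiR-30e-5p, encoded beside Mir30c-1 in Nfyc, read 247 and 440 in skin and 702 and 660 in oral mucosa. Its difference was 0.60 (SD 0.67), again with both oral mucosa spots above both skin spots. For each of these 3 members the difference was no larger than its repeat-spot SD.

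MiR-30a-5p read 742 and 868 in skin and 1214 and 1179 in oral mucosa, which gave a VSN log2 difference of 0.13 (SD 0.17). MiR-30d-5p, encoded beside Mir30b, read 733 and 1250 in skin and 1330 and 1363 in oral mucosa, which gave -0.01 (SD 0.57). For both, the repeat spots of the arrays overlapped on the VSN scale, although the scanner values were higher on the oral mucosa array. The fitted VSN scale of the 2 arrays differed 1.37-fold, the oral mucosa array being the brighter.

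**Figure D1:**
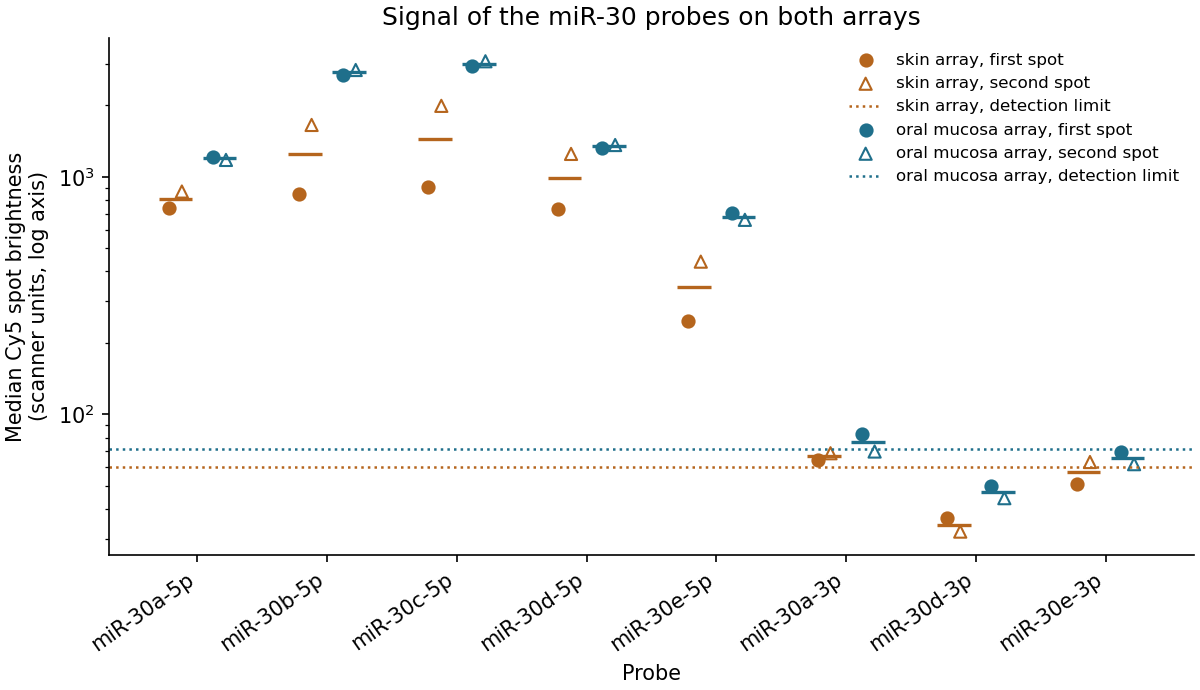
Median Cy5 brightness of the 8 miR-30 probes (log axis, scanner units) on the skin array (brown) and the oral mucosa array (blue), with the first spot as a circle, the second as a triangle, the mean as a bar and each array's detection limit dotted. The 5 5p arms lie far above the limits of 59.9 and 71.8 and the 3 3p arms lie close to or below them, and the 2 skin spots of miR-30b-5p, miR-30c-5p, miR-30d-5p and miR-30e-5p lie far apart where the oral mucosa spots nearly coincide.

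For all 5 arms the first skin spot was the dimmest of the 4 spots in scanner units. The second skin spot of the 5p arms was 1.17 to 2.19 times as bright as the first, whereas on the oral mucosa array the ratio ran from 0.94 to 1.05. Over all probes detected on the skin array the median ratio was 0.87. With the first spots of both arrays alone, VSN scale held, the differences of miR-30b-5p, miR-30c-5p and miR-30e-5p were 1.26, 1.26 and 1.19, all past the size rule. Of the 394 probes detected on both arrays, 11.9% passed it on the first spots as higher in oral mucosa (47 probes) and 16.8% as higher in skin (66 probes). With the second spots the 3 members gave 0.32, 0.17 and 0.15, none past the rule, where 15.5% of the 394 passed as higher in oral mucosa and 14% as higher in skin. MiR-30a-5p gave 0.27 and -0.01, and miR-30d-5p gave 0.43 and -0.34. The median of the 5 was thus 1.19 on the first spots and 0.15 on the second.

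The probes of the family stood one after another in name order, in column 5 of the array from row 92 and again in column 20 from row 107. Around their first spots, within 3 rows and 3 columns, lay 30 spots of other microRNAs detected on both arrays, whose median difference was 0.46, with 24 of 30 above 0. Around their second spots lay 21 such spots with a median of 0.53, and 13 of 21 above 0. Over the 725 spots elsewhere the median was -0.08. The medians around both sets of spots were thus above 0, beside 1.19 and 0.15 for the 5p arms on the spots themselves. The part of position in the miR-30 values was not tested further than by the subtraction that follows. Of 12 other probes around the first spots, 9 had a brighter second spot in skin (median ratio 1.22), and 5 had one in oral mucosa (0.98).

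The average of the medians around both its spots was then subtracted from each member's difference, a calculation chosen after seeing the data. The differences became 0.88 for miR-30b-5p, -0.06 for miR-30c-5p, -0.30 for miR-30e-5p, -0.34 for miR-30a-5p and -0.86 for miR-30d-5p, and their median -0.30. Subtraction for the first and second spot separately gave 0.89 and 1.05 for miR-30b-5p, 0.46 and -0.36 for miR-30c-5p and 0.28 and -0.73 for miR-30e-5p. It gave -0.12 and -0.54 for miR-30a-5p and -0.49 and -1.13 for miR-30d-5p. The medians around the spots rest on 6 to 13 neighbouring spots each. Surroundings of 6 rows and 6 columns held 25 to 32 spots. With these the differences were 0.36 for miR-30b-5p, 0.33 for miR-30c-5p and 0.34 for miR-30e-5p. They were 0.11 for miR-30a-5p and -0.24 for miR-30d-5p, and the median was 0.33. The sign of the family median thus depended on how far the surroundings reached.

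**Figure D2:**
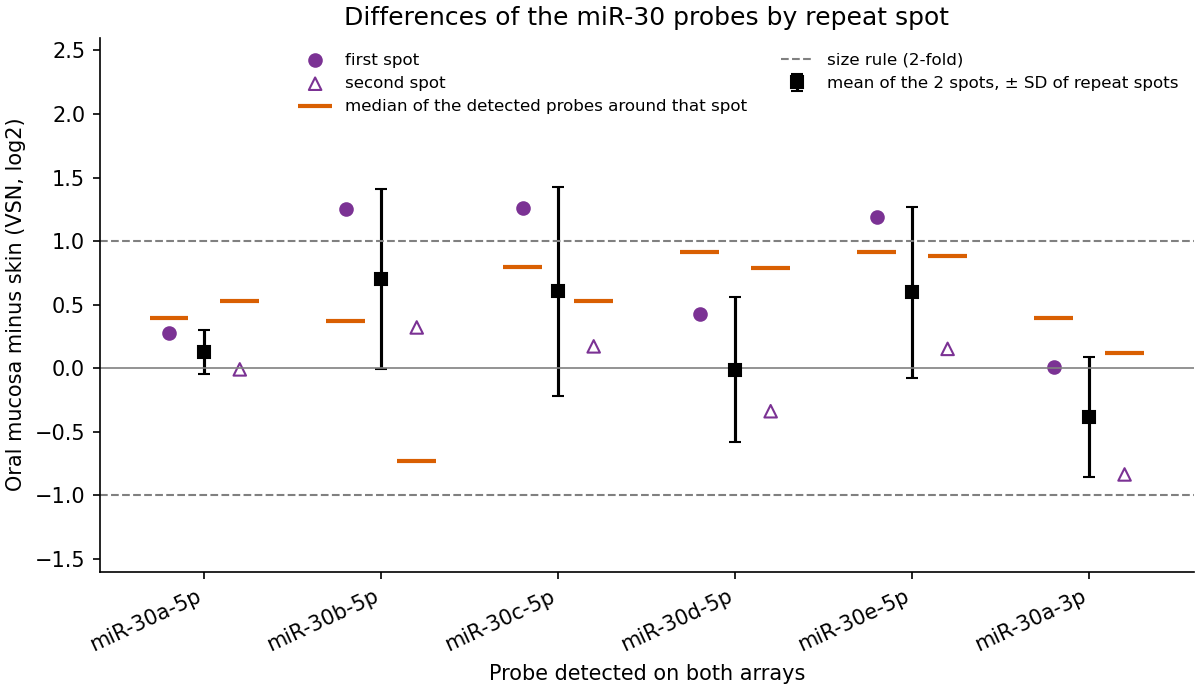
Oral mucosa minus skin (VSN, log2) for the 6 miR-30 probes detected on both arrays: squares give the mean of the repeat spots with the SD of repeat spots, circles and triangles the first and second spot, orange bars the median of the detected probes around that spot, and dashed lines the size rule. Every first spot lies above its second spot, and the first spots of miR-30b-5p, miR-30c-5p and miR-30e-5p alone pass the rule.

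**Figure D3:**
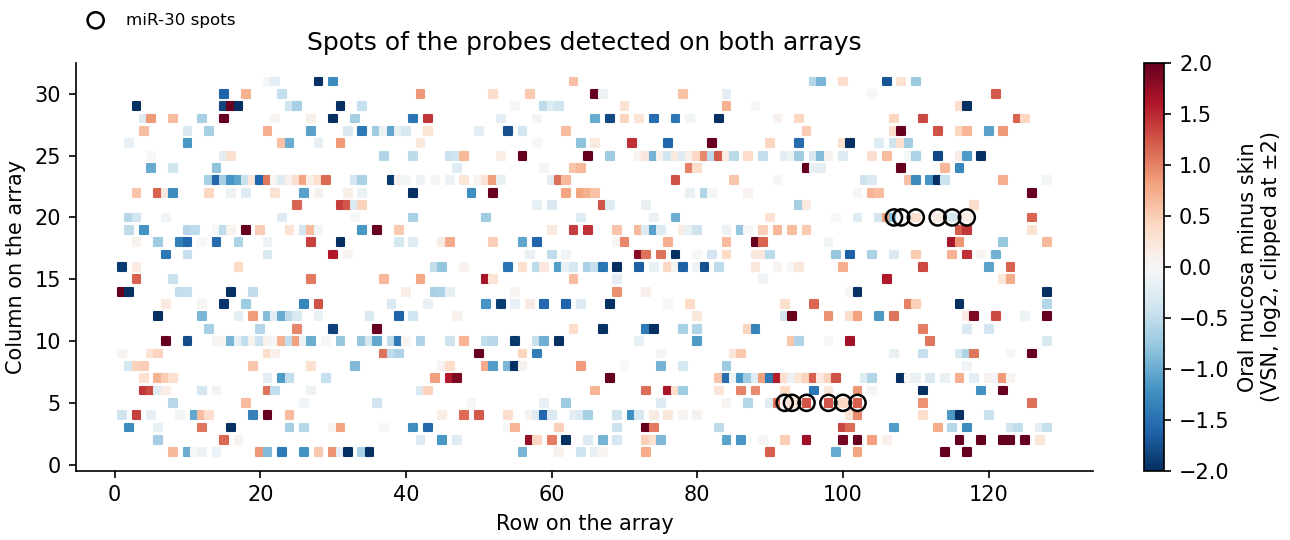
Oral mucosa minus skin (VSN, log2, colours clipped at ±2) for each spot of the 394 probes detected on both arrays, by its row and column on the array, with the miR-30 spots circled. The first spots in column 5 lie among more red (higher in oral mucosa) than blue spots, 24 of 30 neighbours being above 0.

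MiR-30b-5p, miR-30c-5p and miR-30e-5p lay above miR-30a-5p and miR-30d-5p in the VSN analysis, by at least 0.47, and on the first spots alone (1.19 against 0.43) and the second spots alone (0.15 against -0.01). The same order held under all 15 alternative settings that changed member values or the filter, some of which share the same member values, with a smallest gap of 0.04 when the surroundings were subtracted. The SD of a gap combined the repeat-spot SDs of both members as if their errors were independent. By this measure 0 of the 10 pairwise gaps between 5p arms exceeded their SD, the largest being 0.71 between miR-30b-5p and miR-30d-5p (SD 0.91). Error shared by neighbouring spots would cancel in a gap but is counted in this SD. MiR-30d-5p minus miR-30b-5p was -0.83 on the first spots and -0.66 on the second. MiR-30c-5p minus miR-30a-5p was 0.99 and 0.18.

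Neighbours in the genome or in sequence lay close in some pairs and apart in others. MiR-30c-5p and miR-30e-5p, encoded 2.98 kb apart on chromosome 4 by Mir30c-1 and Mir30e, were both at 0.60, whereas miR-30b-5p (0.70) and miR-30d-5p (-0.01) come from precursors 3.70 kb apart on chromosome 15. MiR-30b-5p and miR-30c-5p, which share 18 bases, lay within 0.10 (SD 1.09). Of the arms that differ from miR-30a-5p (0.13) by a single base, miR-30d-5p differed from it by -0.14 (SD 0.59) and miR-30e-5p by 0.47 (SD 0.69). With 1 array per tissue, and with gaps no larger than their SDs computed as above, these are descriptions of the arrays.

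Of the 3p arms, miR-30a-3p read 64.5 and 68.7 in skin and 83.1 and 69.9 in oral mucosa. Its means lay only 1.11 and 1.06 times above the detection limits. The difference was -0.38 (SD 0.47), with overlapping repeat spots on the VSN scale, so it was not separated from 0. MiR-30e-3p read 51.0 and 63.1 in skin and 69.2 and 61.8 in oral mucosa, and its means of 57.1 and 65.5 fell just short of both limits. MiR-30d-3p, at 36.5 and 32.1 in skin and 50.2 and 44.4 in oral mucosa, was at the level of the empty spots. For these 2 members no difference is given, as both arrays were below the limit.

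The remaining miR-30 probes of the array were read as well. MiR-30b-3p, miR-30c-1-3p and miR-30c-2-3p, the other arms of the remaining precursors, were below the limit on both arrays, with means of 38.9, 38.3 and 37.0 in skin and 51.7, 52.8 and 52.8 in oral mucosa. So were miR-30f, another microRNA with the family's name, and miR-384-5p, with means of 34.5 and 39.5 in skin and 44.0 and 43.2 in oral mucosa. Of the 6 probes with the seed GUAAACA, the 5 family members were therefore the ones detected.

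Both arms could be compared between the tissues for miR-30a alone. Its difference was 0.13 for the 5p arm and -0.38 for the 3p arm, a gap of -0.51 (SD 0.50), about the size of its repeat-spot SD. Of 732 precursor names with a probe for each arm, 42 had both arms detected on both arrays. Among the 41 others the median gap was 0.41, with quartiles at -0.03 and 1.08, and 24 of the 41 had a gap larger in size than that of miR-30a. This count is for the VSN value of -0.51. The miR-30a gap was -0.20 on the first repeat spot alone and -0.31 with the surroundings subtracted. The gap was below 0 in 11 of the 41, so miR-30a lay on the less common side. Its place rests on a 3p arm that read only 1.11 times the detection limit in skin and 1.06 times in oral mucosa.

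**Figure D4:**
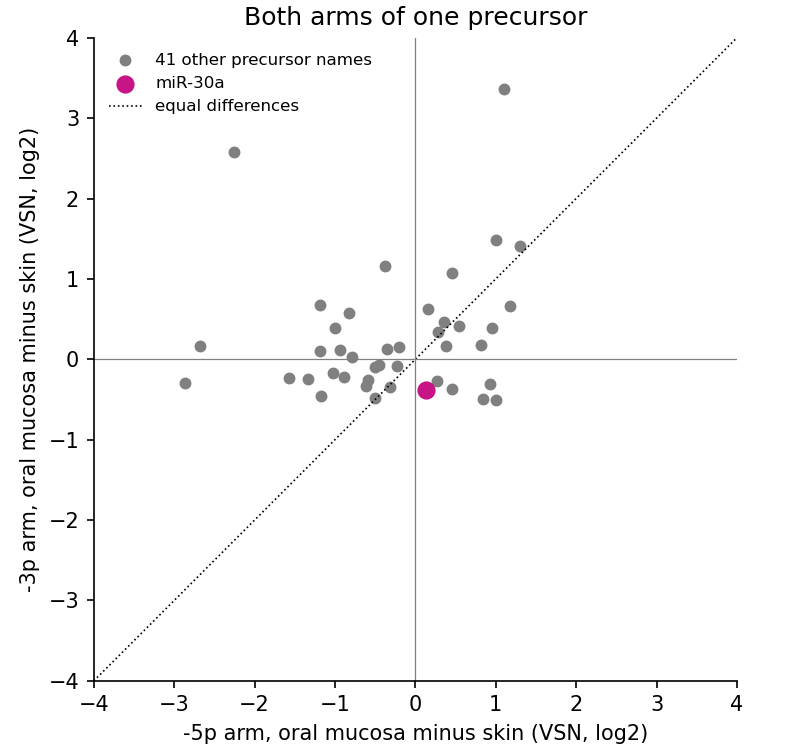
Oral mucosa minus skin (VSN, log2) of the 3p arm against that of the 5p arm for the 42 precursor names with both arms detected on both arrays, with miR-30a in pink and equal differences dotted. MiR-30a lies just below the dotted line at 0.13 and -0.38.

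Families of near-identical mature sequences gave a frame for the spread within miR-30. The 5 miR-30 5p arms spanned 0.71. With the surroundings subtracted they ran more widely, from -0.86 to 0.88, and the other families are given without that subtraction. The 9 detected let-7 and miR-98 5p arms, which are abundant in differentiated tissue, spanned 2.64, from -2.01 for let-7e-5p to 0.63 for let-7i-5p, and 5 of the 9 passed the size rule, all higher in skin. The 3 miR-29 3p arms, regulators of collagen genes, ran from -1.59 for miR-29c-3p to 0.32 for miR-29a-3p, and 1 of the 3 passed, higher in skin. Over the 562 probes detected on at least 1 array, 14.8% passed as higher in skin. The medians were 0.60 for miR-30, -1.05 for let-7 and -0.83 for miR-29. With 1 array per tissue these family differences have no test. The difference nearest to the miR-30 median of 0.60 was found for miR-7671-3p, miR-378c and miR-1949, each at 0.61. Over 2 arrays such likeness is 1 number only, and 19 of 388 other probes detected on both arrays lay within 0.1 of the median.

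Lists of cell type microRNAs were read beside the family. All 7 epithelial microRNAs (the miR-200 family, miR-203-3p and miR-205-5p) were detected on both arrays, the brightest being miR-205-5p at 22415 in skin and 21673 in oral mucosa, and their summed signal was 49225 and 48779. On the VSN scale, which takes out the brighter oral mucosa array, their median difference was -0.48 (miR-205-5p -0.51), and 1 of the 7 passed the size rule in each direction. All 5 mesenchymal microRNAs were higher in oral mucosa (median difference 1.78, summed signal 516 and 1871), led by miR-214-3p at 184 and 948. Of the 4 red blood cell microRNAs listed 3 were found on the array and 1 was detected, miR-451a, at 67.3 in skin and 3056 in oral mucosa, and miR-144-3p and miR-144-5p were not. Of the 2 endothelial probes, only miR-126a-3p passed the limit, on the oral mucosa array but not in skin (43.4 and 155). Of the 5 white blood cell microRNAs listed 3 were found on the array and 1 was detected, miR-150-5p (50.7 and 248). MiR-223-3p and miR-155-5p had probes but were detected in neither tissue.

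The skeletal muscle list gave summed signals of 297 and 428 over 4 probes, led by miR-206-3p at 146 and 177. The VSN difference of miR-206-3p was -0.19 and the median of the 3 detected muscle microRNAs 0.53, with miR-1a-3p detected on neither array and 0 of 4 past the size rule. The 3 microRNAs linked to fat were detected on both arrays, and 2 of them were higher in skin, led by miR-193b-3p at 723 and 362 (difference -1.57). Over the 562 probes detected on at least 1 array, 13.7% passed the size rule as higher in oral mucosa and 14.8% as higher in skin. The part of these cell types in the miR-30 values was not tested.

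**Figure D5:**
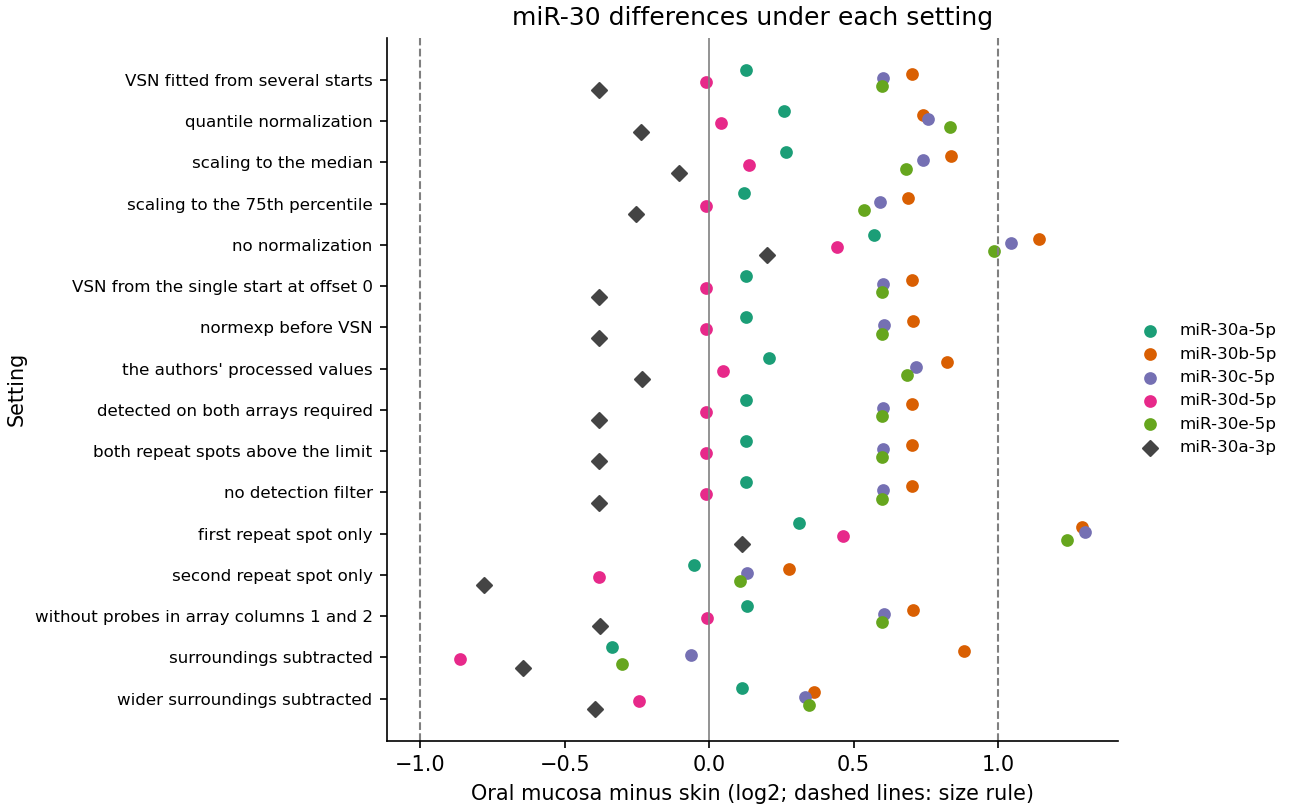
Oral mucosa minus skin (log2) of the 6 miR-30 probes detected on both arrays under VSN and 15 alternatives, with circles for 5p arms, diamonds for miR-30a-3p and dashed lines at the size rule. MiR-30b-5p, miR-30c-5p and miR-30e-5p lie to the right of miR-30a-5p and miR-30d-5p in each setting, and pass the rule only with no normalization (miR-30b-5p and miR-30c-5p) or with the first repeat spot only.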

How the data were processed

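Total RNA was 3′-extended, tagged, stained with Cy5 and hybridised to miRmouse v21 arrays (LC Sciences). The authors deposited the median intensity of each spot in scanner units and its SD within the spot, with no background or scale taken out. A processed intensity for every microRNA on each array was also deposited, made by an unnamed method (median 4 on each array; Spearman's rho with the scanner values of detected microRNAs 0.986 and 0.999), whose scale between arrays is unknown; it served as an alternative only.

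Repeat spots were averaged and the 184 control spots left out, except the 16 empty ones for the limit. VSN (arsinh transformation, maximum likelihood, least trimmed squares keeping 90% of probes in 4 of 5 signal slices and all of the dimmest) was written in Python 3.11.15 (numpy 2.4.6, scipy 1.17.1, pandas 2.3.3) and tested on simulated arrays. The fitted offsets were 37.9 and 46.3. Normexp used limma 3.58.1 in R 4.3.3. The study's CyberT test was not run, as repeat spots share 1 RNA pool. The members, lists and settings were chosen with earlier results of these data known. The named microRNAs were all miR-30 probes, all probes of their seed, the 3 nearest in difference, the lowest and highest of the let-7 and miR-29 lists, and the brightest of each cell type list; list members named as undetected, and miR-203-3p, were added after their values were seen. Sequences came from the array files, and all those of the members that RefSeq's table lists were identical to it. Only arrays were analysed here, and their number limits the precision.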

Additional observations from a re-analysis of the deposited data

How the results depend on the processing

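No paired analysis was possible because a single array was made per tissue. The array-wide count of 160 fell to 80 after quantile normalization, and was 85 with either the median or the 75th percentile as the scale, 102 with no normalization, 87 with the authors' processed values, 104 when detection on both arrays was required, 577 without a detection filter, 256 and 46 at 1.5-fold and 4-fold, and 172 (of 599 probes) on the first repeat spot alone. Of the miR-30 5p arms, 0 passed the size rule with VSN, 2 with no normalization, 3 on the first repeat spot alone and 3 at 1.5-fold. Those that passed were higher in oral mucosa. Over all probes with no normalization, 80 of 562 passed as higher in oral mucosa and 22 as higher in skin. These counts were 84 and 88 of 599 on the first repeat spot alone, and 130 and 126 of 562 at 1.5-fold. Of the 3p arms 1, miR-30d-3p, passed without a detection filter, both its means lying at the level of the empty spots. The miR-30a-3p difference of -0.38 was -0.64 with the surroundings subtracted. On the second spots alone, where this arm failed detection on an array, it was -0.78. It was 0.20 with no normalization and 0.11 on the first spots. With no normalization the median over all 562 probes was 0.40, so these values are read relative to it, and 78.4% of calls were then higher in oral mucosa, against 48.1% with VSN. The 5p median of 0.60 was -0.30 with the surroundings subtracted (chosen after seeing the data, as was the wider version, 0.33), and between 0.11 and 1.24 under the other settings. These extremes came from the second and the first repeat spot alone. There the VSN scale was not held, as it was for the 0.15 and 1.19 given earlier. Apart from the changed thresholds, detection filters and spots used, the cause was not tested. The arm gap of miR-30a, -0.51 with VSN, was below 0 in each setting that gave it. It was -0.20 on the first repeat spot alone and -0.31 with the surroundings subtracted. It was not computed where miR-30a-3p failed detection on an array (the second spots alone, or both spots required above the limit). VSN from a single start at offset 0 gave the same fit.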
